A study of Mus musculus with 8 samples.

Results

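The interferon gamma inducible GTPases described here are 10 mouse genes, the guanylate-binding proteins Gbp2, Gbp3, Gbp4, Gbp5, Gbp6, and Gbp7 and the immunity-related GTPases Irgm1, Irgm2, Igtp, and Iigp1. They were chosen by gene name from a table of 54532 genes, each of the 10 names matched 1 row, and 10 of 10 passed the filter on low counts. The table holds bulk RNA-seq counts of 8 tumors grown from 4T1-FLuc, a mouse triple-negative breast cancer line that carries firefly luciferase. The cells were injected under the skin of female BALB/cJ mice aged 6 weeks, which keep an intact immune system. The 4 mice of 1 group received mAb-DXd/IMQ, labelled HumCD276-Dxd/IMQ, a humanized antibody to CD276 loaded with the TOP1 inhibitor DXd and with IMQ, an imidazoquinoline agonist of TLR7 and TLR8. It was given at 16 mg/kg into the tail vein every 4 days for 5 courses, and the 4 mice of the control group received saline, which another label of the same samples calls PBS. Tumors were taken at the study endpoint, and total counts were between 34591912 and 69582375 per tumor. In this range 3 counts equal 0.0431 to 0.0867 CPM (counts scaled by library), a floor that covers counting error only.

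Interferon gamma, made mainly by T cells and NK cells, binds a receptor built from Ifngr1 and Ifngr2 chains and signals through the kinases Jak1 and Jak2. Its target promoters carry GAS elements, and Irf1, itself a target, binds interferon-stimulated response elements (ISRE), which type I interferons also use. Guanylate-binding proteins and immunity-related GTPases are made under this control in many cell types, tumor cells included, and assemble on membranes around intracellular pathogens, where guanylate-binding proteins also assist inflammasomes.

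Promoter sequence is shown for the short elements through which interferons act, and a link between these elements and the levels below was not tested. RefSeq promoter windows of 300 bases, 250 before and 50 after a start site on GRCm38.p6, were found for 7 of the 10 members, Gbp2, Gbp3, Gbp5, Gbp7, Irgm1, Irgm2, and Igtp, and not for Gbp4, Gbp6, and Iigp1. Both strands were searched for an ISRE-like motif, GAAANNGAAA, and for a GAS-like motif, TTCNNNGAA, which reads the same on both strands. These 7 genes have 8 windows. The ISRE-like motif was in 7 of the 8, at least 1 per gene, against 3.44% of 32851 promoter windows of all genes. The GAS-like motif was in 4 of the 8 windows, those of Gbp5, Gbp7, Igtp, and Irgm2, against 8.30% of all windows. Both motifs together were in the same 4 windows, against 0.454% of all windows. A match is a description of the letters and not a binding site. Below are the 170 bases before the start site of each gene, 5′ to 3′ on the gene's strand, with the bases of either motif in capitals; Gbp3 has another window, which holds neither motif.
Gbp2 (chr3:142620493-142620662, plus strand): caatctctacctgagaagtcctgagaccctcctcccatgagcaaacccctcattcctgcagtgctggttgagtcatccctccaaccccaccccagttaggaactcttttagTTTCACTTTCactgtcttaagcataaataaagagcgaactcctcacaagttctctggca
Gbp3 (chr3:142559874-142560043, plus strand): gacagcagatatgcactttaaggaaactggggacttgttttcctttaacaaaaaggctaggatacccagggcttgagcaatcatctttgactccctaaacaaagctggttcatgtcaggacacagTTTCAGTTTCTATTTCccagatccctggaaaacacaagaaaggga
Gbp5 (chr3:142496764-142496933, plus strand): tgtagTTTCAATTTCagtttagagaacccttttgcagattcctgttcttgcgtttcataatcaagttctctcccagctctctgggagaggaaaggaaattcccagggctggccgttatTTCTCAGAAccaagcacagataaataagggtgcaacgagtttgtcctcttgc
Gbp7 (chr3:142530166-142530335, plus strand): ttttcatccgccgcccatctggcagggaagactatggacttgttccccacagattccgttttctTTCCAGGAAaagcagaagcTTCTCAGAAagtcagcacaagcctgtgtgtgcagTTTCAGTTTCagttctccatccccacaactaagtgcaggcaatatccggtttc
Irgm1 (chr11:48871421-48871590, minus strand): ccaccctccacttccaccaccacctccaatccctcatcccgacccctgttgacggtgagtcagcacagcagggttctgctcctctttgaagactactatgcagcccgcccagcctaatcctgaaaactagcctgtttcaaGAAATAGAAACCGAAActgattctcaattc
Irgm2 (chr11:58214807-58214976, plus strand): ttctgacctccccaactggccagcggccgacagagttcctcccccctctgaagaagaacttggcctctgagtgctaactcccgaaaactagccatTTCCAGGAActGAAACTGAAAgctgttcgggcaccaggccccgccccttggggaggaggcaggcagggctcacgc
Igtp (chr11:58199386-58199555, plus strand): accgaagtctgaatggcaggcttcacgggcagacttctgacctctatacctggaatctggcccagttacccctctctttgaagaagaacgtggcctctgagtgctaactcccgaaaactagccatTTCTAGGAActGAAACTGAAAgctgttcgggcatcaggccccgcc

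In Igtp and Irgm2 the GAS-like motif lies directly before the ISRE-like motif, with 2 bases between them in both genes. Aligned at the GAS-like motif without gaps, the windows of these neighboring genes share 184 of 270 bases (68.1%). In Gbp3 and Irgm1 a pair of ISRE-like matches overlap each other and make 1 longer run of capitals. Gbp5 differs in that its ISRE-like match starts at base -165 from the start site, while the ISRE-like matches of the other 6 genes start between bases -64 and -24. Gbp5 also has a GAS-like match at base -245, outside the stretch shown. For comparison, the ISRE-like motif was found for 13 of 20 type I interferon-stimulated genes with a window and for 6 of 13 paralogs of the members. The GAS-like motif was found for 4 of these 20 genes and for 4 of the 13 paralogs. Both motifs together were found for 3 of the 20 and for 4 of the 13 (30.8% of paralog windows).

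Levels of different members were compared per length, as TPM values from the deposited counts and gene lengths. In saline tumors Gbp2 had the highest mean level, 471 ± 222 TPM (SD, n = 4), followed by Igtp at 351 ± 189 TPM and Iigp1 at 312 ± 96.2 TPM. The place of Iigp1 depends on its length, 3121 bases in the table but 5823 exonic bases in GENCODE release M21, where the other 9 members have equal lengths in both. With 5823 bases, an alternative chosen after seeing the data, Iigp1 was at 167 ± 51.6 TPM in saline tumors and 139 ± 14.03 TPM in mAb-DXd/IMQ tumors, and its rank moved from 3 to 5 and from 3 to 6. Gbp4, Gbp3, Irgm2, Irgm1, and Gbp7 followed, with mean levels from 196 TPM down to 119.7 TPM. Gbp5 had 44.3 ± 21.7 TPM, and Gbp6 was the lowest with 12.4 ± 6.45 TPM. From Gbp2 down to Gbp7 the members were well expressed, with mean levels in saline tumors above those of 98.6% to 93.1% of tested genes. The mean level of Gbp5 exceeded that of 79.8% of tested genes, and that of Gbp6, near the middle, exceeded 52.2%. Between neighbors in this order the ranges of mean ± SD overlapped, except that Gbp7 lay above Gbp5 and Gbp5 above Gbp6. These SDs hold variation that the members share: within tumors, Gbp2 exceeded Igtp, Gbp4 exceeded Gbp3, and Irgm2 exceeded Irgm1 in 4 of 4 saline tumors. In mAb-DXd/IMQ tumors the order began with Igtp at 345 ± 31.4 TPM, Gbp2 at 335 ± 54.2 TPM, and Iigp1 at 259 ± 26.2 TPM, and the ranges of Igtp and Gbp2 overlapped. Gbp3, with 209 ± 8.66 TPM, stood above Gbp4, with 155 ± 20.96 TPM, the reverse of their order in saline tumors. Gbp5 and Gbp6 were again lowest, at 28.3 ± 4.04 and 9.78 ± 0.431 TPM. Without division by length, Gbp4 has the highest count level in both groups, since its gene length in the table is 7494 bases.

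**Figure D1:**
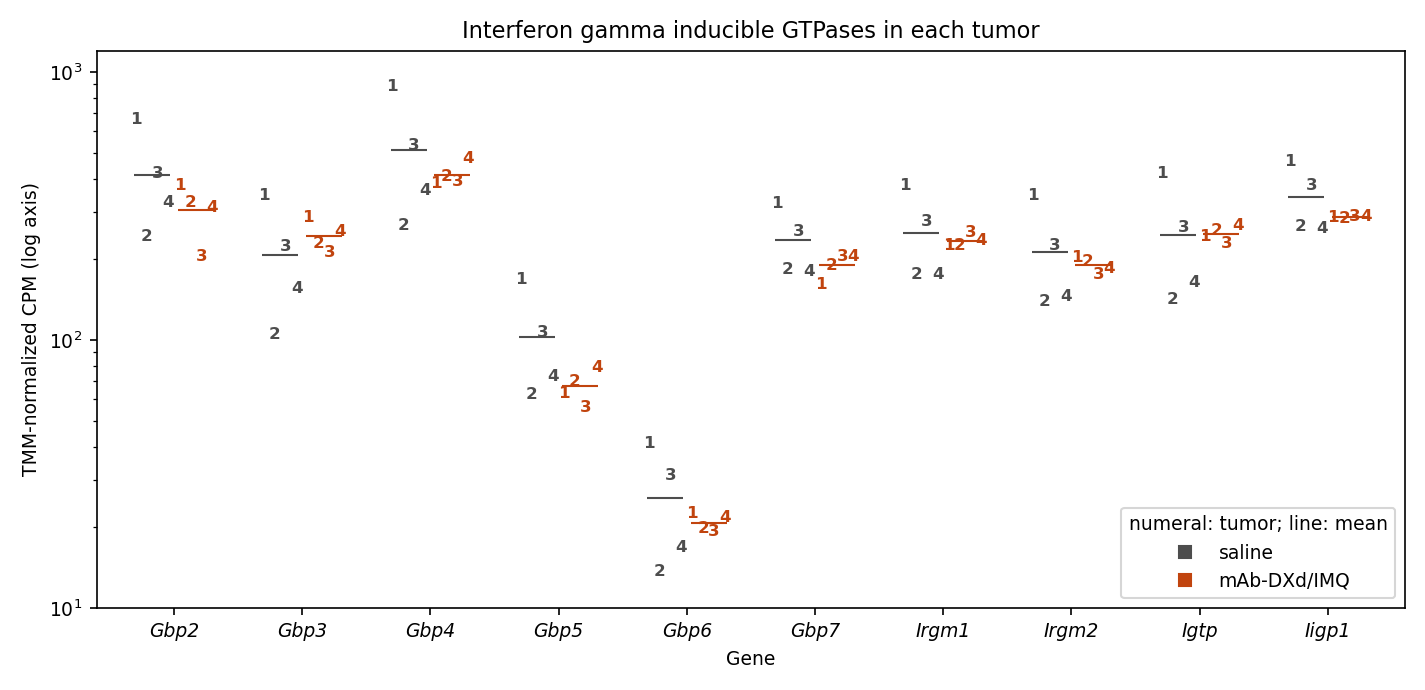
TMM-normalized CPM (log axis) of each member in each tumor; numerals give the tumor within its group, saline in gray and mAb-DXd/IMQ in red, and lines give group means. Saline tumor 1 is the highest of its group for 10 of 10 members, and the mAb-DXd/IMQ tumors lie close together within or near the saline range.

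Among guanylate-binding proteins, Gbp5, which promotes NLRP3 inflammasome assembly, showed the largest difference between groups of the 10 members with all tumors included. Its normalized levels were 168, 62.7, 106, and 72.9 CPM in saline tumors 1 to 4 and 63.3, 70.2, 55.8, and 78.8 CPM in mAb-DXd/IMQ tumors 1 to 4. Saline tumors 1 and 3 were above every treated tumor, while saline tumors 2 and 4 lay among them, so the groups overlapped. The log2 fold change (mAb-DXd/IMQ over saline) was -0.61 with a standard error of 0.27 (95% interval -1.20 to -0.028; unadjusted p = 0.0415, adjusted p = 0.242, edgeR). Without saline tumor 1 it was -0.27, and Gbp3 then had the largest difference. Gbp2, which is recruited to pathogen vacuoles, had 667, 242, 417, and 327 CPM in saline tumors and 376, 326, 204, and 313 CPM after mAb-DXd/IMQ. The log2 fold change of Gbp2 was -0.44 (standard error 0.28, adjusted p = 0.438, edgeR), and 3 of 4 treated tumors lay within the saline range; without saline tumor 1 it was -0.11. Gbp3 was the guanylate-binding protein with a positive difference. It had 346, 105, 224, and 155 CPM in saline tumors and 285, 229, 212, and 253 CPM in mAb-DXd/IMQ tumors, all 4 of them inside the saline range (log2 fold change 0.24, standard error 0.29, adjusted p = 0.704, edgeR). The value for Gbp3 ran from 0.019 without saline tumor 2 to 0.60 without saline tumor 1.

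Gbp4, the most counted member, had 883, 268, 532, and 360.2 CPM in saline tumors and 382, 406, 391, and 474 CPM after mAb-DXd/IMQ. The log2 fold change of Gbp4, -0.31 (standard error 0.30, adjusted p = 0.623, edgeR), came with a 95% interval from -0.96 to 0.35, so these tumors did not settle its direction, and it was 0.092 without saline tumor 1. Gbp6 ranged from 13.7 to 41.2 CPM in saline tumors and from 19.3 to 22.5 CPM in mAb-DXd/IMQ tumors (log2 fold change -0.31, standard error 0.29, adjusted p = 0.615, edgeR; 0.014 without saline tumor 1). Its value is uncertain, since 36.3% of the windows of 100 bases in its transcripts also occur in Gbp10 and 59.0% in Gm43302, a gene with 4 counts in all tumors together. With the counts of these 3 genes summed, an alternative chosen after seeing the data, the log2 fold change was -0.28 (adjusted p = 0.718, edgeR). Gbp7, which takes part in the assembly of the phagocyte NADPH oxidase, ranged from 180.1 to 323 CPM and from 161 to 206 CPM (log2 fold change -0.31, standard error 0.19, adjusted p = 0.403, edgeR; -0.12 without saline tumor 1). Gbp2, Gbp3, Gbp5, and Gbp7 lie on chromosome 3, between 142493978 and 142638008 on GRCm38, and Gbp4 and Gbp6 on chromosome 5, between 105115767 and 105293698. Of the windows of Gbp2, Gbp3, Gbp4, and Gbp5, at most 1.64% occur in another gene, and of Gbp7 10.01%, nearly all of them in Gm43802, which had 0 counts.

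Immunity-related GTPases had log2 fold changes between -0.25 and 0.010, smaller in size than those of Gbp2 and Gbp5, an order that did not hold without saline tumor 1. Irgm1, a regulator that resides on host membranes and keeps effector GTPases inactive there, had 377, 176, 276, and 176 CPM in saline tumors and 225, 226, 253, and 234 CPM in mAb-DXd/IMQ tumors. Each treated tumor lay between the low pair (2 and 4) and the high pair (1 and 3) of saline tumors. In log2 fold change Irgm1 was at -0.098 (standard error 0.22, adjusted p = 0.855, edgeR) and 0.16 without saline tumor 1. Irgm2 and Igtp belong to the same regulatory subgroup. Irgm2 had 346, 139, 225, and 145 CPM in saline tumors and 203, 196, 176, and 185 CPM in mAb-DXd/IMQ tumors (log2 fold change -0.17, standard error 0.25, adjusted p = 0.762, edgeR; 0.16 without saline tumor 1). Igtp had 419.6, 142, 263, and 163 CPM in saline tumors and 243, 257, 229, and 267 CPM in mAb-DXd/IMQ tumors, and was at 0.010 in log2 fold change (standard error 0.28, adjusted p = 0.990, edgeR; 0.39 without saline tumor 1). The 95% interval of Igtp ran from -0.61 to 0.63, wide enough to hold the difference seen for Gbp2 and its opposite.

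Igtp and Irgm2 overlap on the plus strand of chromosome 11, from 58199556 to 58222782, and 162 exonic bases are common to both, 8.01% of those of Igtp and 4.39% of those of Irgm2. How the authors' counting divided reads there is not given in the sources used here. With both genes summed, an alternative chosen after seeing the data, the log2 fold change was -0.071 (adjusted p = 0.921, edgeR). Irgm1 lies apart on the minus strand of the same chromosome, from 48861968 to 48871683. Of its windows of 100 bases 0 occur in another gene.

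Iigp1, an effector that loads onto parasite vacuoles, is on chromosome 18 from 60376029 to 60392627. It had 462, 265, 377, and 259.8 CPM in saline tumors and 287, 283, 289.7, and 288 CPM in mAb-DXd/IMQ tumors. The 4 treated tumors were nearly equal, 287 ± 2.83 CPM (SD, n = 4), against 341 ± 97.3 CPM in saline tumors. In log2 fold change Iigp1 was at -0.25 (standard error 0.18, adjusted p = 0.485, edgeR; -0.070 without saline tumor 1).

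Across all genes, 18511 entered edgeR's quasi-likelihood test. With FDR (Benjamini-Hochberg adjustment) under 0.05 and a log2 fold change beyond 0.58 in either direction, 197 (1.06%) passed. The split was 101 higher (0.546%) and 96 lower (0.519%) after mAb-DXd/IMQ; it was 145 and 73 with upper quartile factors in place of TMM factors. The total is unstable: it was 10 without saline tumor 3, 11 without saline tumor 4, and 12 without mAb-DXd/IMQ tumor 4. Of the 10 members, 0 passed as higher and 0 as lower. DESeq2, limma-voom, and a newer version of the quasi-likelihood method, which called 806, 174, and 291 genes, also called 0 of 10. At an unadjusted p under 0.05 there was 1 member, Gbp5, against 18.9% of tested genes. Groups were free of overlap for 0 of 10 members and for 13.1% of tested genes, 5.97% as higher and 7.10% as lower. The median log2 fold change of the members was -0.28, with 8 negative and 2 positive, against a median of 0.022 over all genes tested. This median was 0.053 without saline tumor 1 and lay between -0.38 and -0.20 when any of the other 7 tumors was left out.

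**Figure D2:**
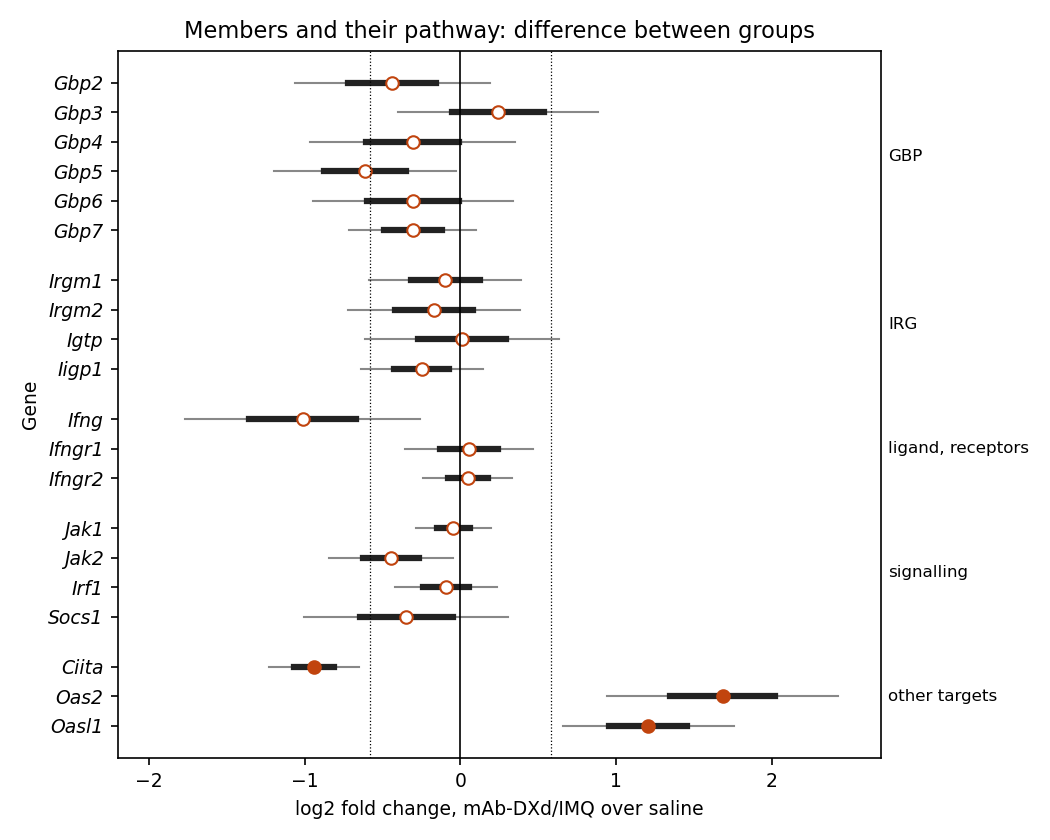
Log2 fold change of the members and of named genes of their pathway (horizontal axis), with thick bars for 1 standard error and thin bars for the 95% interval; filled points passed both thresholds and dotted lines mark the fold limit of 0.58. None of the 10 members is filled, while Ciita, Oas2, and Oasl1 are.

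The members differed far more among saline tumors than between the groups. Saline tumor 1 had the highest level of its group for 10 of 10 members, against 31.6% of tested genes. The lowest saline level was in tumor 2 for 7 members and in tumor 4 for the other 3, Gbp7, Irgm1, and Iigp1. From the lowest to the highest saline tumor the fold was between 1.78 (Iigp1) and 3.31 (Gbp3). The mean log2 CPM of the 10 members was 8.33, 6.97, 7.78, and 7.19 in saline tumors 1 to 4. It was 7.47, 7.44, 7.32, and 7.52 in mAb-DXd/IMQ tumors, a far narrower range that lies inside that of the saline tumors.

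On the log2 scale the SD among saline tumors exceeded the SD among mAb-DXd/IMQ tumors for 10 of 10 members. The opposite was usual: the SD was larger in saline tumors for 36.0% of tested genes, and for 31.4% of the 10759 with a mean of at least 8 CPM. Members were not alone in this. The SD was also larger in saline tumors for 14 of 20 paralogs, 8 of 8 macrophage and monocyte markers, and 5 of 5 endothelial markers. For T cell markers it was larger in saline tumors for 2 of 8. The members had a median SD of 0.63 with saline and of 0.12 with mAb-DXd/IMQ, where the medians over all tested genes were 0.23 and 0.30. The ratio of the SDs ran from 1.63 for Gbp2 to 28.4 for Iigp1. Gbp2 kept the widest spread in treated tumors, with tumor 3 at 204 CPM and tumor 1 at 376 CPM. With 4 tumors per group, the difference in spread was described and was not tested.

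**Figure D3:**
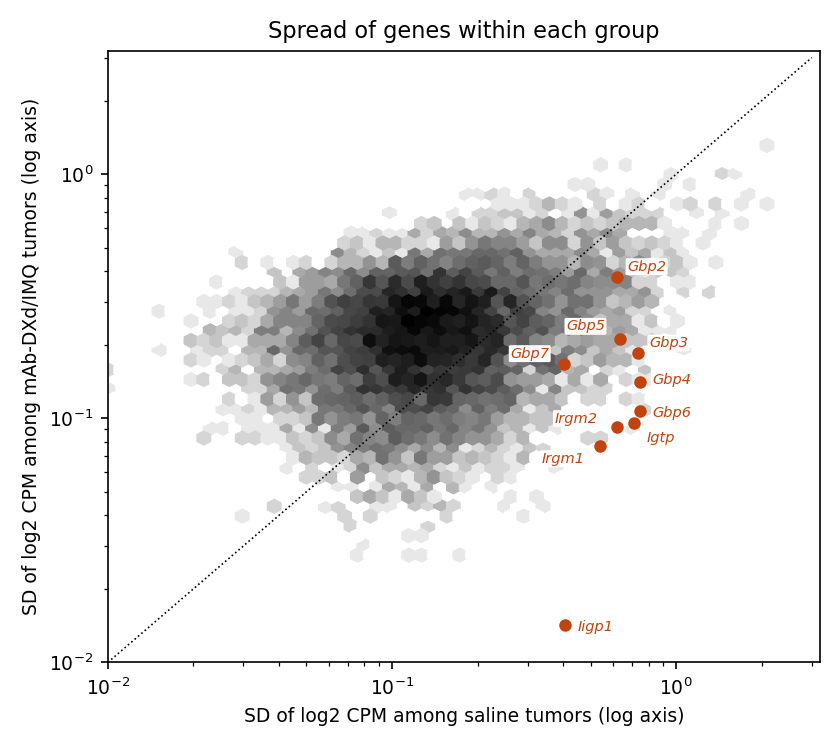
SD of log2 CPM among the 4 mAb-DXd/IMQ tumors (vertical, log axis) against the SD among the 4 saline tumors (horizontal, log axis) for tested genes with a mean of at least 8 CPM; darker cells hold more genes, points are the members, and the dotted line marks equal spread. All 10 members lie below the line, at the wide end of saline spread, and Iigp1 is the lowest.

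Members moved together among saline tumors, and less so among mAb-DXd/IMQ tumors. Over the 8 tumors, deviations of log2 CPM from the group mean had a median Pearson r of 0.94 over the 45 pairs of members, and the lowest r was 0.60. These correlations are descriptions, and all genes in a tumor share its library. Within the 4 saline tumors alone, each member had an r of at least 0.979 with the mean of the other 9. Within the 4 mAb-DXd/IMQ tumors alone, r was negative for Irgm1 (-0.79), Gbp7 (-0.41), and Iigp1 (-0.33), and between 0.46 and 0.86 for the other 7. Over all 8 tumors, Igtp followed the mean of the other 9 members most closely (r = 0.997) and Gbp2 least (r = 0.86). Outside the members and their paralogs, 10731 genes with a mean of at least 8 CPM were ranked by r with the mean deviation of the members. Among the most alike were Apol10b (0.994), Apol9a (0.988), Lipg (0.983), and Gm4610 (0.981). Within the 4 mAb-DXd/IMQ tumors alone their r was 0.86, 0.71, 0.91, and 0.15, in the same order. Of these 4, 0 passed both thresholds; Apol9a, at 0.69, had the largest positive log2 fold change and Lipg, at -0.59, the largest negative (adjusted p = 0.222 and 0.528, edgeR).

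Apart from the shared variation, the mix of members differed between groups, most for Gbp3 and Gbp5, a pattern found by looking at the data and not tested. Gbp3 made up 9.69%, 7.43%, 9.36%, and 9.40% of the summed TPM of the 10 members in saline tumors 1 to 4. In mAb-DXd/IMQ tumors its share was 13.7%, 11.5%, 12.0%, and 12.3%, so that every treated tumor exceeded every saline tumor. Gbp5 made up 2.32%, 2.19%, 2.19%, and 2.18% in saline tumors and 1.502%, 1.73%, 1.55%, and 1.88% in mAb-DXd/IMQ tumors, again with no overlap. The shares of the other 8 members overlapped; with 5823 bases for Iigp1 that of Igtp did not (at most 20.26% with saline, at least 20.27% with mAb-DXd/IMQ), and Gbp3 and Gbp5 were again without overlap. Both genes lie on chromosome 3 in the same cluster. The count ratio of Gbp5 to Gbp3 ran from 0.470 to 0.599 with saline and from 0.222 to 0.311 with mAb-DXd/IMQ. Of the 45 ratios between members, 12 (26.7%) did not overlap between groups, and Gbp3 and Gbp5 each took part in 5 of them, Igtp in 4, Gbp4 in 3, and each other member in at most 2. Among all 57872661 pairs of tested genes with a mean of at least 8 CPM, 16.6% did not overlap. A ratio removes variation that 2 genes share, and members moved together, so the 2 percentages are not a like comparison. Levels of single genes were free of overlap for 13.1% of tested genes. No share over all genes was computed for a part of a summed TPM, as used for Gbp3 and Gbp5. With a correction for gene length, the log2 fold changes of Gbp3 and Gbp5 were 0.18 and -0.55.

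Guanylate-binding proteins and immunity-related GTPases kept nearly equal shares. The 6 guanylate-binding proteins together held 51.5 ± 2.42% of the summed TPM of the members with saline and 49.2 ± 2.78% with mAb-DXd/IMQ (SD, n = 4), or 55.7 ± 2.12% and 52.9 ± 2.69% with 5823 bases for Iigp1. The sum over the 10 members was 3221, 1211, 2061, and 1422 TPM in saline tumors and 1580.1, 1734, 1712, and 1756 TPM in mAb-DXd/IMQ tumors. Saline tumors 1 and 3 were above all treated tumors and saline tumors 2 and 4 below all of them.

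Paralogs of the members are other guanylate-binding proteins, other immunity-related GTPases, very large inducible GTPases, and the related atlastins. Of 24 listed, 22 were in the table and 20 were tested, and 0 passed in either direction. Their median log2 fold change was -0.19, with 5 positive and 15 negative, from -0.69 (Gbp11) to 0.26 (Gm12185). Without saline tumor 1 the median was -0.014. The highest saline level was in tumor 1 for 16 of the 20, and the lowest was in tumor 2 for 15. The groups did not overlap for 1 of 20, against 13.1% of tested genes. It was Atl3, an atlastin that shapes endoplasmic reticulum, with means of 237 ± 12.6 and 167 ± 19.7 CPM (SD, n = 4). The log2 fold change of Atl3, named after its values were seen, was -0.50 (adjusted p = 0.0544, edgeR). Among interferon-inducible paralogs, Gbp2b had a log2 fold change of -0.46 and Gbp10 of -0.27 (adjusted p = 0.411 and 0.770, edgeR); without saline tumor 1 they were at -0.14 and 0.30.

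The ligand of the pathway, Ifng, was scarce. It had 2.94, 1.87, 2.87, and 1.57 CPM in saline tumors and 1.22, 1.26, 0.633, and 1.46 CPM in mAb-DXd/IMQ tumors. All 4 treated tumors were below all 4 saline tumors, and the log2 fold change of -1.02 (standard error 0.34, unadjusted p = 0.0130, adjusted p = 0.145, edgeR) did not pass. Within the saline group Ifng was higher in tumors 1 and 3 than in tumors 2 and 4, as the members were. In bulk tumors, fewer cells of a type and less RNA per cell cannot be told apart. The receptor genes Ifngr1 and Ifngr2 had log2 fold changes of 0.057 and 0.046 (standard errors 0.19 and 0.13; adjusted p = 0.907 and 0.887, edgeR), with signs that changed between alternatives. Of 13 listed interferon ligands, receptors, and inducers of interferon gamma, 8 were tested and 0 passed, with a median log2 fold change of -0.13. The largest difference of this list was that of Il12b, at -1.69 (adjusted p = 0.117, edgeR; named after its values were seen). Too few counts for testing were found for Ifnb1 (40 counts over the saline group and 23 over the treated group), Ifna4, Ifnl2, Ifnl3, and Il12a.

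Of 15 signalling genes of the pathway, 15 were tested and 0 passed, 13 were negative, and the median log2 fold change was -0.32. Groups were free of overlap for 3 of the 15, all 3 lower, against 7.10% of tested genes, and 6 of the 15 had an unadjusted p under 0.05, against 18.9%. Irf1, a transcription factor induced by interferon gamma, was at -0.094 in log2 fold change (standard error 0.15, adjusted p = 0.784, edgeR). For the kinase Jak1 the log2 fold change was -0.045 (adjusted p = 0.864) and for Jak2 -0.45 (standard error 0.18, adjusted p = 0.214, edgeR; -0.27 without saline tumor 1). Socs1, an inhibitor of the kinases and itself a target, had -0.35 (standard error 0.30, adjusted p = 0.567, edgeR), and 0.035 without saline tumor 1. Irf2, a repressor of ISRE-driven genes, and Pias1, a SUMO ligase, had FDR values under 0.05 but log2 fold changes of -0.50 and -0.54, short of the fold limit (adjusted p = 0.0427 and 0.0277, edgeR; named after their values were seen).

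**Figure D4:**
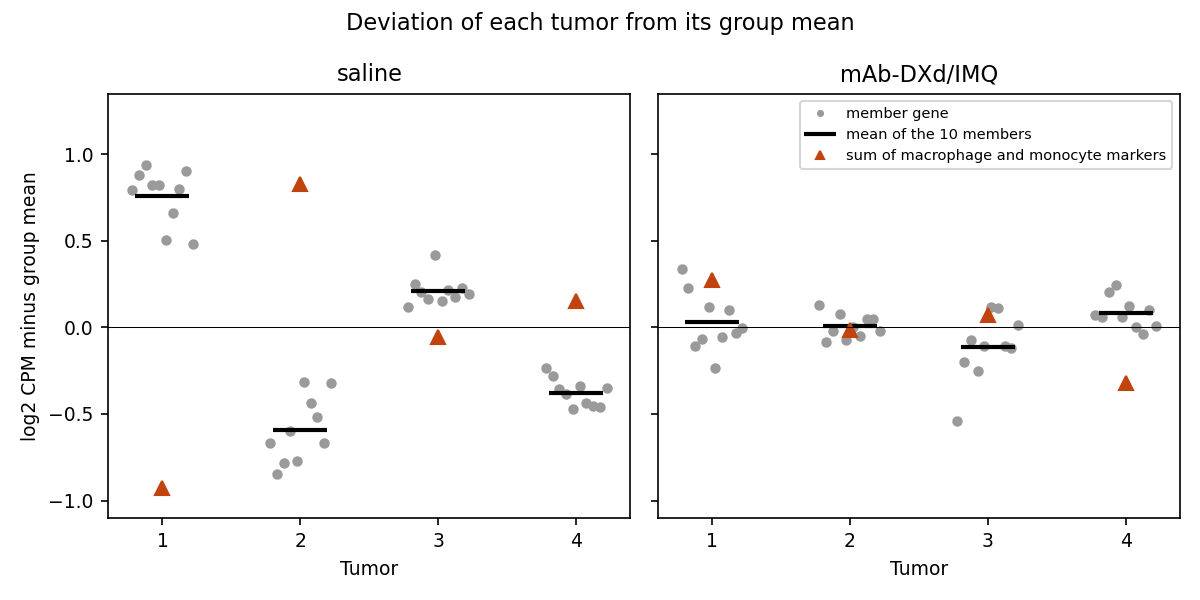
Deviation of each tumor from the mean of its group in log2 CPM (vertical axis) for saline tumors (left) and mAb-DXd/IMQ tumors (right): gray points are the 10 members, the bar is their mean, and triangles are the summed macrophage and monocyte markers. The members are highest in saline tumor 1, while the macrophage markers are lowest in saline tumor 1 and highest in saline tumor 2.

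Other targets of interferon gamma did not share a direction. Of 20 tested, 1 passed as lower and 0 as higher, against 0.519% and 0.546% of all tested genes. Of the 20, 12 were negative and 8 positive, and the median log2 fold change was -0.10. Ciita, the transactivator of MHC class II genes, had 135, 109.7, 124, and 93.8 CPM in saline tumors. It fell to 51.9, 64.6, 62.6, and 61.6 CPM after mAb-DXd/IMQ, with every treated tumor below the saline range (log2 fold change -0.94, standard error 0.13, adjusted p = 0.0201, edgeR). The call was kept in 18 of 22 alternatives. Some of these could hardly change it. Dropping the fold limit cannot lose a call, and summing Igtp with Irgm2, or Gbp6 with Gbp10 and Gm43302, left the counts of Ciita as they were. The call was lost without saline tumor 3 and without mAb-DXd/IMQ tumor 4, where the log2 fold changes were -0.91 and -0.95. It was also lost with a replicate block, alone and with a length correction, where they were -0.93 and -0.83. Of 18 genes of antigen presentation 0 passed. Their median log2 fold change of 0.068 joins opposite directions, since the 6 genes of MHC class II presentation in the list were all negative, from -0.59 (H2-Eb1) to -0.16 (H2-DMb1), and 11 of the other 12 were positive (named after their values were seen). Of 18 partners of the GTPases in inflammasomes, autophagy conjugation, and prenylation 0 passed, with a median of -0.16.

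Type I interferon-stimulated genes, many of which share the ISRE-like motif with the members, stood on the other side of 0 with all tumors included, though not without saline tumor 1, where the median of the members was 0.053. All 29 listed genes were tested and 29 of 29 had a positive log2 fold change, with a median of 0.69 against -0.28 for the members and 0.022 for all genes tested. Past both thresholds were 2 of the 29 as higher and 0 as lower, where 0.546% of all tested genes passed as higher. The groups were free of overlap in the higher direction for 12 of the 29, against 5.97% of tested genes. Oas2, which makes the activator of RNase L, had 81.8, 28.1, 92.5, and 78.3 CPM in saline tumors and rose to 139, 211, 251, and 302 CPM in mAb-DXd/IMQ tumors (log2 fold change 1.69, standard error 0.34, adjusted p = 0.0427, edgeR). Oasl1, an inhibitor of Irf7 translation, had 37.1, 13.9, 35.4, and 24.6 CPM in saline tumors and rose to 72.1, 59.7, 61.4, and 63.1 CPM in mAb-DXd/IMQ tumors (log2 fold change 1.21, standard error 0.25, adjusted p = 0.0458, edgeR). The calls were kept in 14 of 22 alternatives for Oas2 and in 13 of 22 for Oasl1, including the settings named for Ciita that could hardly change a call. The log2 fold changes stayed between 1.42 and 1.86 and between 0.98 and 1.37 when 1 tumor was left out.

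In tumor order the type I list and the members resembled each other. Saline tumor 1 was the highest saline tumor for 27 of 29 type I genes and saline tumor 2 the lowest for 28 of 29, where 29.1% of tested genes had their lowest saline level in tumor 2. The SD on the log2 scale was larger among saline tumors for 29 of 29. The lists differed in where the treated tumors lay relative to the saline range. Every treated tumor was above it for 12 of the 29 type I genes and for 0 of the 10 members, against 5.97% of tested genes. For 7 of the 10 members all 4 treated tumors were inside it. They were also inside it for type I genes such as Ifit1, Ifit3, and Zbp1, named after their values were seen. A wide saline range, as the members had, makes such a position more likely, and its share over all genes was not counted. The median of the type I list was 0.41 without saline tumor 2 and 0.98 without saline tumor 1. The difference between the lists was not tested.

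**Figure D5:**
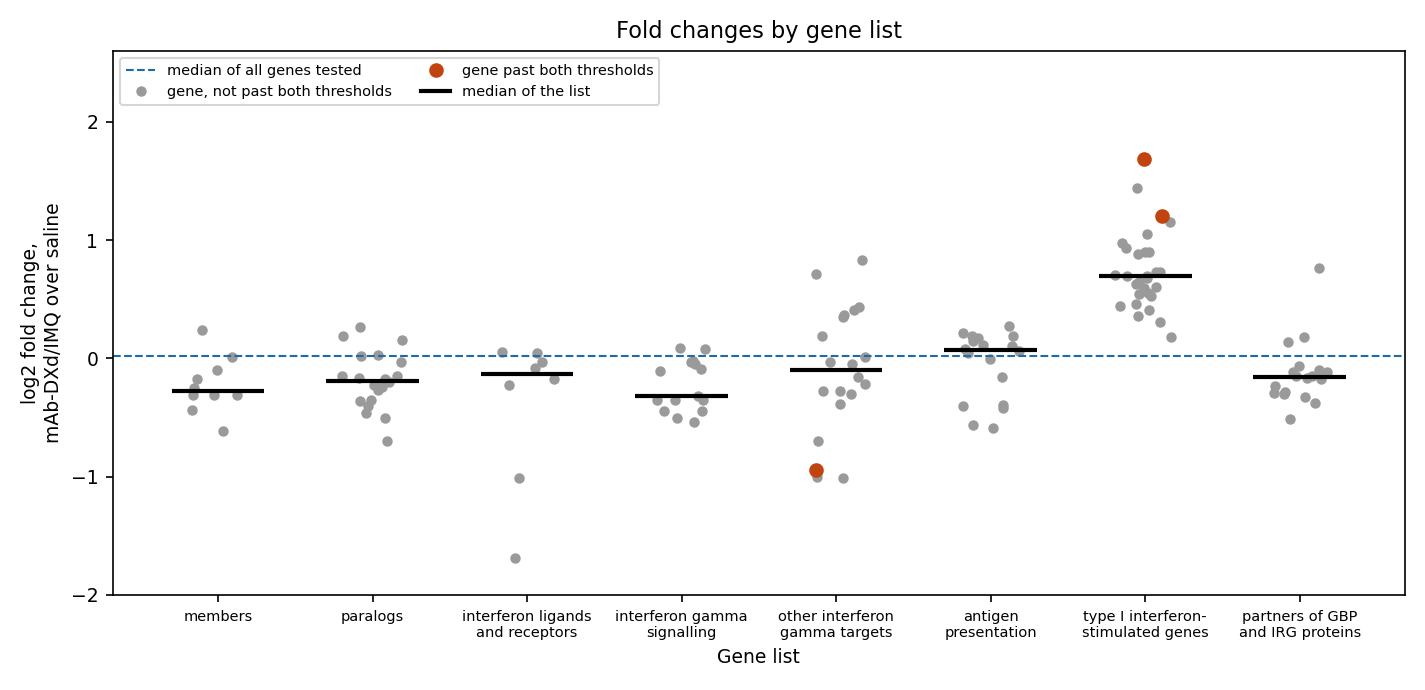
Log2 fold change (vertical axis) of each tested gene in the members, their paralogs, and 6 lists of their pathway; black bars are list medians, the dashed line is the median of all genes tested, and red points passed both thresholds. The members center at -0.28 and the type I interferon-stimulated genes at 0.69.

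Markers of cell types in the tumors also varied with the saline order. The summed level of 8 macrophage and monocyte markers was 749, 2537, 1376, and 1588 CPM in saline tumors and 1399, 1144, 1215, and 927 CPM in mAb-DXd/IMQ tumors. It was lowest in saline tumor 1 and highest in saline tumor 2, the reverse of the members (r = -0.91 with their mean deviation over the 8 tumors, a description). C1qa was the most abundant of these markers, with group means of 468 and 443 CPM, and 0 of 8 passed. Of the 8, 7 were negative, with a median log2 fold change of -0.45. Groups were free of overlap for 1 of the 8 as lower, Mrc1 (-1.37, adjusted p = 0.0574, edgeR), against 7.10% of tested genes. As higher it was 1 of the 8, Ly6c2 (0.79, adjusted p = 0.184, edgeR), against 5.97%. Both genes were named after their values were seen. The sum of 5 endothelial markers, led by Pecam1, was 80.4, 199, 140.2, and 149.8 CPM in saline tumors and 193, 169.7, 190.3, and 157 CPM in mAb-DXd/IMQ tumors (r = -0.93), with 0 of 5 passed. Both values of r rest mostly on the saline tumors. There the mean log2 CPM of the members had an SD of 0.61, against 0.084 in mAb-DXd/IMQ tumors. The part of either cell type in the spread of the members was not tested. No marker of any list had 3 counts or fewer in every tumor.

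Sources of interferon gamma were read from T cell and NK cell markers. The 8 T cell markers summed to 76.6, 116, 109.6, and 100.2 CPM in saline tumors and to 66.2, 55.2, 35.02, and 48.2 CPM in mAb-DXd/IMQ tumors, with no overlap. Of the 8, 2 passed as lower, where 0.519% of tested genes did. They were Cd4 (log2 fold change -1.91, adjusted p = 0.0201, edgeR) and Cd8a, the most abundant (log2 fold change -1.22, adjusted p = 0.0201, edgeR). Groups were free of overlap for 5 of the 8, all 5 lower, against 7.10% of tested genes. The calls of Cd4 and Cd8a were each kept in 17 of 22 alternatives. These include the settings named for Ciita that could hardly change a call. Both calls were lost without saline tumor 3, without saline tumor 4, and without mAb-DXd/IMQ tumor 4, with log2 fold changes from -1.92 to -1.77 for Cd4 and from -1.22 to -1.17 for Cd8a. Both were also lost with a replicate block, alone and with a length correction, at -1.87 and -1.89 for Cd4 and -1.24 and -1.27 for Cd8a. Saline tumor 1, the highest for each member, was the lowest saline tumor for 8 of 8 T cell markers. The 5 NK cell markers, led by Klrk1, summed to 26.4 ± 6.31 CPM and 27.5 ± 1.31 CPM (SD, n = 4), and 0 of 5 passed. The equal sums join opposite directions: Klrk1 had a negative log2 fold change and the other 4 positive ones. Groups were free of overlap for 1 of the 5, as higher, against 5.97% of tested genes. The part of T cells and NK cells in the levels of the members was not tested.

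Among the other lists, 5 neutrophil markers summed to 184, 49.6, 62.2, and 89.7 CPM in saline tumors and to 18.0, 27.5, 28.5, and 45.0 CPM in mAb-DXd/IMQ tumors, where S100a9 was most abundant. These groups did not overlap, and saline tumor 1 was again highest, but 0 of 4 tested genes passed. B cell markers, led by Cd79b, were scarce, with 1.86 ± 0.809 and 0.940 ± 0.145 CPM. Their sums did not overlap between groups either, although saline tumor 1 (1.175 CPM) was close to mAb-DXd/IMQ tumor 1 (1.134 CPM). The 6 dendritic cell markers summed to 98.1 ± 9.89 and 99.3 ± 32.4 CPM, mostly Itgax. Of the 6, 5 were negative, with a median log2 fold change of -1.099. An unadjusted p under 0.05 (edgeR) was found for 4 of the 6, against 18.9% of tested genes. Fibroblast markers, led by Col1a1, summed to 4089 ± 1632 and 4086 ± 1656 CPM. The tumor epithelium was present in every sample: its 6 markers, led by Krt18, summed to 2250.5 ± 242 and 2661 ± 775 CPM. Skeletal muscle markers, led by Acta1, summed to 167 ± 109.8 and 136 ± 66.7 CPM and were highest in saline tumor 1 (278 CPM) and lowest in saline tumor 2 (29.1 CPM). Epidermis markers, led by Krt5, reached 168 CPM in mAb-DXd/IMQ tumor 2 and were at most 39.1 CPM elsewhere, and 3 adipocyte markers, led by Adipoq, were at most 2.84 CPM. Of the receptors whose low level defines triple-negative disease, Erbb2 was the most abundant, with means of 102 and 100.8 CPM. Of the tested genes of these lists, 0 passed both thresholds.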

How the data were processed

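Bulk RNA-seq of 8 tumors was used, 4 per group, with groups and tumor numbers from the sample labels. The count table deposited by the authors holds unnormalized reads per gene and gene lengths. The submitters' processing notes name HISAT2, HISAT, TopHat2, and the build mm39, but 53548 of the 54532 genes lie at the GRCm38 coordinates of GENCODE release M21, so GRCm38 is given here. Strandedness of the counting is not given in the sources used here. The labels name no batch, so no comparison within a batch could be made.

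Genes were kept by filterByExpr (minimum count 10, minimum total count 15), scaled with TMM factors, and compared with the quasi-likelihood F-test of edgeR 4.0.16 in R 4.3.3, without covariates. Genes passed at FDR under 0.05 and absolute log2 fold change above 0.58. Standard errors and 95% intervals were approximated from the F statistic. CPM values are TMM-normalized counts, and log2 CPM used a prior count of 2. DESeq2 1.42.0, limma 3.58.1, other scalings and filters, a length correction (spline with 5 degrees of freedom), a replicate block, and leaving out each tumor were alternatives. The steps were tested on simulated data. No pair of libraries within a group agreed within sampling noise (chi-square per degree of freedom at least 34.1). Python 3.11.15 and matplotlib 3.10.9 drew the figures.

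Members and lists were chosen with earlier results of these data known. Named were the members, genes of the interferon gamma pathway, list genes past the thresholds, the most abundant marker of each list, and genes most like the members; others are said to be named after their values were seen.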

Additional observations from a re-analysis of the deposited data

Results flagged for a closer look

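Values of 4 tumors were checked for a single distant tumor in 48 groups, and 2 were found, where chance gives about 1 in 20. In mAb-DXd/IMQ tumors, Ifngr1 was at 119.9 CPM in tumor 1 and between 83.0 and 86.7 CPM in the others, and the gap to the nearest was 0.883 of the whole log2 range. In saline tumors, Oas2 was at 28.1 CPM in tumor 2 and between 78.3 and 92.5 CPM in the others, a gap of 0.860 of the range. No member was among these groups in either condition.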

How the results depend on the processing

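Of 10 members, 0 passed both thresholds in each of the 22 alternatives, and the lowest adjusted p of any member was 0.146 (Gbp5 without saline replicate 2). Gbp2, Gbp3, Gbp5, Gbp7, and Iigp1 kept their sign in all of them, but not their size: leaving out 1 tumor gave -0.63 to -0.11 for Gbp2, 0.019 to 0.60 for Gbp3, -0.79 to -0.27 for Gbp5, -0.41 to -0.12 for Gbp7, and -0.35 to -0.070 for Iigp1. The median log2 fold change of the members lay between -0.38 and 0.053 when 1 tumor was left out. The number of genes past both thresholds, 197, was 358 with no filter on low counts and 806 with DESeq2, and between 10 and 203 when 1 tumor was left out: 111 and 10 without saline replicates 2 and 3, 11 without saline replicate 4, and 76, 88, and 12 without mAb-DXd/IMQ replicates 2, 3, and 4.

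Tumors with the same number in the 2 groups come from different mice. Their deviations had correlations between -0.17 and 0.079, and those of tumors with unlike numbers between -0.10 and 0.18. These correlations cannot show whether tumors of the same number shared a day or other handling. With a replicate block 14 genes passed, and 17 with the replicate block and the length correction; Ciita, Oas2, Oasl1, Cd4, and Cd8a were then not called, with log2 fold changes of -0.93, 1.76, 1.30, -1.87, and -1.24 under the replicate block. With the replicate block Gbp10 was at 0.00013.

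Other values changed sign, and the cause was not tested. With upper quartile factors Jak1 was at 0.0010. With the length correction Igtp was at -0.075, Ifngr1 at -0.0098, and Jak1 at 0.028. With the length correction and replicate block Irgm1 was at 0.017 and Jak1 at 0.019. With 5823 bases for Iigp1, chosen after the data were seen, the ranks of Iigp1, Gbp4, and Gbp3 per length moved, and that of Irgm2 in mAb-DXd/IMQ tumors. With Igtp and Irgm2 summed, chosen after the data were seen, their value was -0.071. Leaving out 1 tumor gave ranges of -0.52 to 0.092 for Gbp4, -0.52 to 0.014 for Gbp6, -0.24 to 0.16 for Irgm1, -0.33 to 0.16 for Irgm2, -0.18 to 0.39 for Igtp, and -0.55 to 0.30 for Gbp10. The ranges were -0.087 to 0.20 for Ifngr1, -0.030 to 0.15 for Ifngr2, -0.099 to 0.034 for Jak1, -0.18 to 0.036 for Irf1, and -0.54 to 0.035 for Socs1.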
